A study of Mus musculus with 17 samples.

Results

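Levels of 10 genes of the S100 calcium-binding protein family were compared in mammary glands of 4 mouse genotypes. The members were taken by gene symbol from the authors' table of 30843 loci: S100a8, S100a9, S100a1, S100a4, S100a6, S100a10, S100a11, S100a13, S100a16 and S100b. Each had 1 row of its own, and all 10 were among the 12188 named loci with at least 1 FPKM in at least 2 of the 8 columns. FPKM, fragments scaled for transcript length and for the mapped fragments of the library, allows an approximate comparison of levels between genes. Ratios between columns still moved with transcript length, as described below.

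The glands came from nulliparous C57Bl/6 female mice in 17 libraries. BRCA mice were Brca1fl11/fl11/MMTV-Cre/p53+/-, which combines a Cre-deletable Brca1 allele pair, Cre recombinase under the mouse mammary tumour virus promoter and loss of 1 Trp53 allele. CERM mice were tet-op-Esr1MMTV-rtTA, with an estrogen receptor alpha transgene switched by the tetracycline-controlled activator rtTA. AROM mice were tet-op-CYP19A1MMTV-rtTA, with a transgene for aromatase, the enzyme that makes estrogens, under the same control. WT mice were wild type. The MMTV promoter is active mainly in mammary epithelium, whereas the RNA was from whole glands. The labels give no age and no treatment with the tetracycline that switches the transgenes. They list 2 single-end libraries of each genotype and, by paired-end reads, 2 BRCA, 3 CERM, 3 AROM and 1 WT.

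The table holds 1 pooled FPKM value per gene, genotype and read layout. Spread between animals is not in such a table, so all differences below are given without a test and were not checked against replicates. The depth of the libraries is unknown. Per the labels' protocols libraries were sequenced by both methods, so the 2 layouts may share RNA and are not independent repeats. Both WT columns carry decimals as of a mean of 3 values, in 31.7% of the single-end and 29.4% of the paired-end values, which does not match the labelled number of WT libraries. Every comparison with WT carries this limit, and the 3 comparisons with WT within a layout share 1 WT column. A gene was counted as higher or lower when FPKM + 1 differed at least 2-fold, a size and not a test.

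The engineered loci were a weak check of the labels. The receptor gene Esr1 stood at 8.49 FPKM in CERM against 7.27 in WT in the single-end columns, and at 8.41 against 6.89 in the paired-end ones. AROM, with no such transgene, had 8.41 and 7.87 FPKM of Esr1, so this level does not mark CERM. The mouse aromatase gene Cyp19a1 was at 0.0591 and 0.0502 FPKM in AROM and was listed at 0 in all other columns. Brca1 was at 3.28 FPKM in BRCA against 1.13 in WT (single-end) and at 3.29 against 0.851 (paired-end), a value over the whole locus that does not measure the deleted exon. Trp53 was at 12.3 FPKM in BRCA against 41.1 in WT, and at 12.1 against 34.5. Genotype names below are those of the column labels. The luminal keratin gene Krt8 (63.4 to 212 FPKM) and the adipocyte gene Adipoq (600.005 to 1885 FPKM) were present in all 8 columns, as in tissue of epithelium and fat.

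S100 proteins are small proteins that bind calcium through paired EF-hand motifs, change shape and then attach to partner proteins. Inside cells they act on the cytoskeleton, membranes and annexins, and some are released and act on the receptors Ager (RAGE) and Tlr4. S100a8 and S100a9 form calprotectin, a metal-binding heterodimer that fills neutrophil cytoplasm and is also made by monocytes and by stressed epithelium. Most mouse S100 genes lie in 1 cluster. In the GENCODE M21 annotation 9 of the members are on chromosome 3 and S100b is on chromosome 10.

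S100a11, which binds annexin A1, had the highest level of the family in every column, between 555 FPKM in paired-end WT and 1059.6 FPKM in paired-end AROM. It made up 38.9% to 45.2% of the summed FPKM of the 10 members. S100a11, S100a10, S100a1 and S100a6 together made up 81.8% to 87.3%. Calprotectin was the variable part. S100a8 and S100a9 gave 8.41% of the family sum in BRCA, 1.83% in CERM, 0.564% in AROM and 0.574% in WT by single-end reads. By paired-end reads the shares were 7.21% in BRCA, 2.47% in CERM, 0.325% in AROM and 0.374% in WT. A share within a column does not depend on how columns are scaled against each other.

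**Figure D1:**
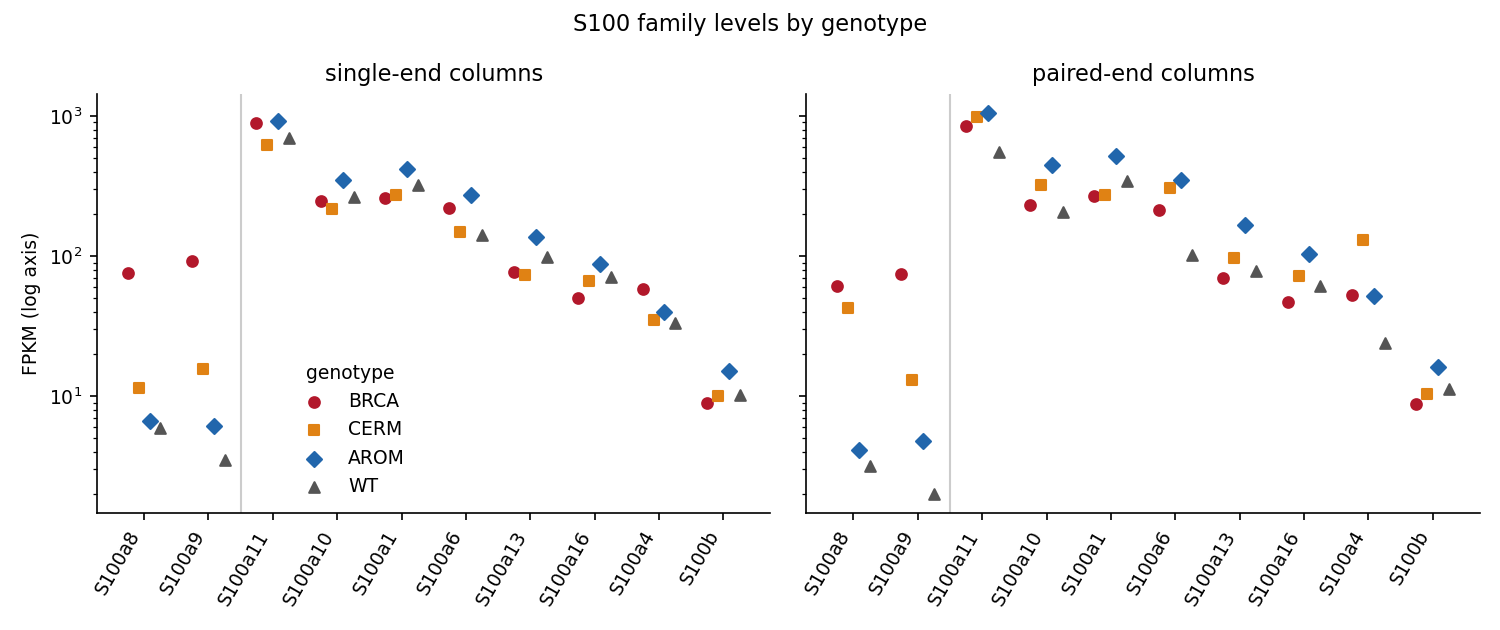
FPKM (log axis) of the 10 members in the pooled columns of BRCA, CERM, AROM and WT, by read layout; each point is 1 column and there are no error bars because the columns are pooled. S100a8 and S100a9, left of the grey line, spread widely between genotypes, from 2.01 to 92.2 FPKM, and S100a11 was highest in every column.

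The calprotectin pair was far higher in BRCA than in any other genotype by single-end reads. S100a8 was at 75.3 FPKM in BRCA, 11.4 in CERM, 6.63 in AROM and 5.91 in WT. S100a9 was at 92.2 FPKM in BRCA, 15.5 in CERM, 6.08 in AROM and 3.51 in WT. Both genes were highest in BRCA and second in CERM, and AROM stood close to WT for S100a8. The log2 ratio of FPKM + 1 in BRCA over WT was 3.46 for S100a8 and 4.37 for S100a9. They ranked 16th and 13th from the top among the 12188 loci analysed. These 2 members were at least 2-fold higher, against 3.62% of all loci, and no member was 2-fold lower, against 1.90%.

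By paired-end reads S100a9 kept this order. It was at 74.1 FPKM in BRCA, 12.97 in CERM, 4.76 in AROM and 2.01 in WT, with a log2 ratio of 4.64 in BRCA over WT. S100a8 was at 61.1 FPKM in BRCA, 42.6 in CERM, 4.11 in AROM and 3.17 in WT, so that its CERM column was much nearer to BRCA. The log2 ratio of S100a8 in BRCA over WT was 3.90. With S100a4 and S100a6, described below, 4 members were at least 2-fold higher in BRCA than in WT by paired-end reads and none was lower, against 5.03% and 1.28% of all loci.

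Against the genotypes other than WT, which avoids the WT columns, the BRCA pair was also high. In BRCA over AROM the log2 ratio of S100a8 was 3.32 by single-end and 3.60 by paired-end reads, and that of S100a9 was 3.72 and 3.70. Of all loci 5.36% and 10.6% were at least 2-fold higher in this comparison. In BRCA over CERM S100a9 had log2 ratios of 2.50 and 2.43, with 3.08% and 2.92% of all loci at least 2-fold higher. S100a8 had log2 ratios of 2.63 and 0.51 there, past 2-fold in the single-end columns and not in the paired-end ones. S100a4 was the member at least 2-fold lower in BRCA than in CERM, by paired-end reads (-1.30), against 2.44% of all loci, and none was by single-end reads, against 3.09%.

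In CERM over AROM S100a9 was at 1.22 by single-end and 1.28 by paired-end reads on the log2 scale, and S100a8 at 0.70 and 3.09. S100a9 alone was past 2-fold in the single-end columns, against 1.84% of all loci, and S100a8, S100a9 and S100a4 (1.32) were in the paired-end columns, against 4.14%. No member was 2-fold lower in CERM than in AROM, against 0.804% and 2.25% of all loci, but S100a1 was by paired-end reads after median-ratio scaling (-1.13). The remaining members mostly lay below 0 in this comparison, with medians over the 8 of -0.59 and -0.50.

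The starts of both calprotectin genes and of S100a4 are shown because these 3 members ranged most between columns. The windows run from 250 bases before to 50 bases after the RefSeq gene start in build GRCm38.p6, 5′ to 3′ on the strand of the gene. They lie at chr3:90668821-90669120 (plus strand) for S100a8, chr3:90695672-90695971 (minus strand) for S100a9 and chr3:90603520-90603819 (plus strand) for S100a4. Capitals mark matches to the motifs searched.
S100a8: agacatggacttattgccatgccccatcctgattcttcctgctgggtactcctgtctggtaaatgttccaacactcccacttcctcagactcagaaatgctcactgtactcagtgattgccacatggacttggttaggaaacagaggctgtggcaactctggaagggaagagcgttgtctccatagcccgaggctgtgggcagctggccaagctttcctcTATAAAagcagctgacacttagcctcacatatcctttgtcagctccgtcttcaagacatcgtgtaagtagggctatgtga
S100a9: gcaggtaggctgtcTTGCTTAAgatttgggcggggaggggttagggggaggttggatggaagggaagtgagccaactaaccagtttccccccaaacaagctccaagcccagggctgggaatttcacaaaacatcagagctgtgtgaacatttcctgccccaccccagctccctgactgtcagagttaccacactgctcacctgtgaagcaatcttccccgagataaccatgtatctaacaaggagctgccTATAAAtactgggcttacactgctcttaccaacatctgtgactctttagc
S100a4: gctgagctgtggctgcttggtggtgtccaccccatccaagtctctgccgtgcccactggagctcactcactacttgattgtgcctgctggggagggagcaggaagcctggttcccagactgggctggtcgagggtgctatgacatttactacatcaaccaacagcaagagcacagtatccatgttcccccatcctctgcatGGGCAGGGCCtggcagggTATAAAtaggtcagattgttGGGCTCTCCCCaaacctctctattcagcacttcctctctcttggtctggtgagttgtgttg

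The TATA box letters TATAAA, searched on the strand of the gene, were found in all 3 windows and in none of the other members' windows. With the first base of the gene as position 0, they began at -30 in S100a8, -31 in S100a4 and 0 in S100a9. Of 32851 RefSeq promoter windows of the same length 8.32% held them. The C/EBP letters TTGCNNAA, searched on both strands, were found in the S100a9 window only, from position -236, against 10.8% of all windows. The capitals GGGCAGGGCC and GGGCTCTCCCC in S100a4 are matches to the NF-kB letters, GGG and CC with any 5 bases between them on either strand, with 2 overlapping matches in the second run. Of all windows 50.8% held a match, and the windows of S100a8 and S100a9 held none. The interferon response letters, GAAA and GAAA with any 2 bases between them on either strand, present in 3.44% of windows, were in none of the members' windows. The AP-1 letters TGANTCA, searched on both strands and present in 7.81%, were found in S100a11 and S100a16. RefSeq windows were matched for 9 of the 10 members, all but S100a10. Such matches describe the letters only.

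The ratio of S100a8 to S100a9 within a column set paired-end CERM apart. It was 0.816 in BRCA, 0.731 in CERM, 1.09 in AROM and 1.68 in WT by single-end reads. In the paired-end columns it was 0.825 in BRCA, 3.28 in CERM, 0.863 in AROM and 1.58 in WT. S100a8 was 3.75 times as high in the paired-end as in the single-end CERM column, while S100a9 was 0.835 times as high. Which of the pooled libraries carried this cannot be read from the table.

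Most other neutrophil genes analysed were higher in BRCA than in WT. Of 15 neutrophil markers listed, 9 were analysed. At least 2-fold higher in BRCA than in WT were 6 of the 9 by single-end reads and 7 by paired-end reads. The median log2 ratios were 1.33 and 1.42. Camp, Ngp and Cxcr2 reached 1 FPKM in the BRCA columns only, so they were analysed because they were high in BRCA. The filter therefore favours BRCA in these counts and medians. In CERM none of the 9 was 2-fold higher than in WT in either layout, and the medians were 0.15 and 0.27. Prtn3 was 2-fold lower in CERM by paired-end reads. Ngp, a neutrophil granule protein gene, was at 6.79 FPKM in BRCA, 0.121 in CERM, 0.187 in AROM and 0.0401 in WT by single-end reads. By paired-end reads Ngp was at 7.26 FPKM in BRCA, 0.434 in CERM, 0.0877 in AROM and 0.0195 in WT. Ngp therefore stood in BRCA far above the other 3 columns of each layout.

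Retnlg, a resistin-like gene of neutrophils, was at 7.77 FPKM in BRCA, 0.894 in CERM, 0.6098 in AROM and 0.708 in WT by single-end reads, and at 6.75, 1.27, 0.446 and 0.3103 FPKM in these genotypes by paired-end reads. Prtn3, a granule protease gene, had another order and was highest in AROM, at 13.1 FPKM against 2.46 in WT by single-end and 9.53 against 3.04 by paired-end reads. CERM was lowest for Prtn3, at 0.892 and 0.678 FPKM. Elane, Mpo, Cebpe, Fcnb and Mmp8, all from the neutrophil list, were under 1 FPKM in all 8 columns, and Ly6g had no row of its own. The summed FPKM of the 9 analysed markers was 277 and 273 in BRCA and 78.6 to 129 in the other columns. Most of that sum was Ltf, the lactoferrin gene, which mammary epithelium also makes (235 FPKM in BRCA against 88.1 in WT by single-end reads). Fewer cells of a type and less RNA per cell cannot be told apart in whole glands, and the part of neutrophil number in the calprotectin values was not tested. The medians of macrophage and fibroblast markers were above WT in BRCA as well. Of 9 macrophage genes analysed 5 were at least 2-fold higher than in WT by single-end and 7 by paired-end reads, with medians of 1.07 and 1.48. Of 8 fibroblast genes 2 and 5 were, with medians of 0.48 and 1.19. Of all loci 3.62% and 5.03% were. Lyz2, the macrophage gene of highest level, was near WT in BRCA, at log2 ratios of -0.13 and 0.08. The part of these cell types in the S100 values of BRCA was not tested.

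**Figure D2:**
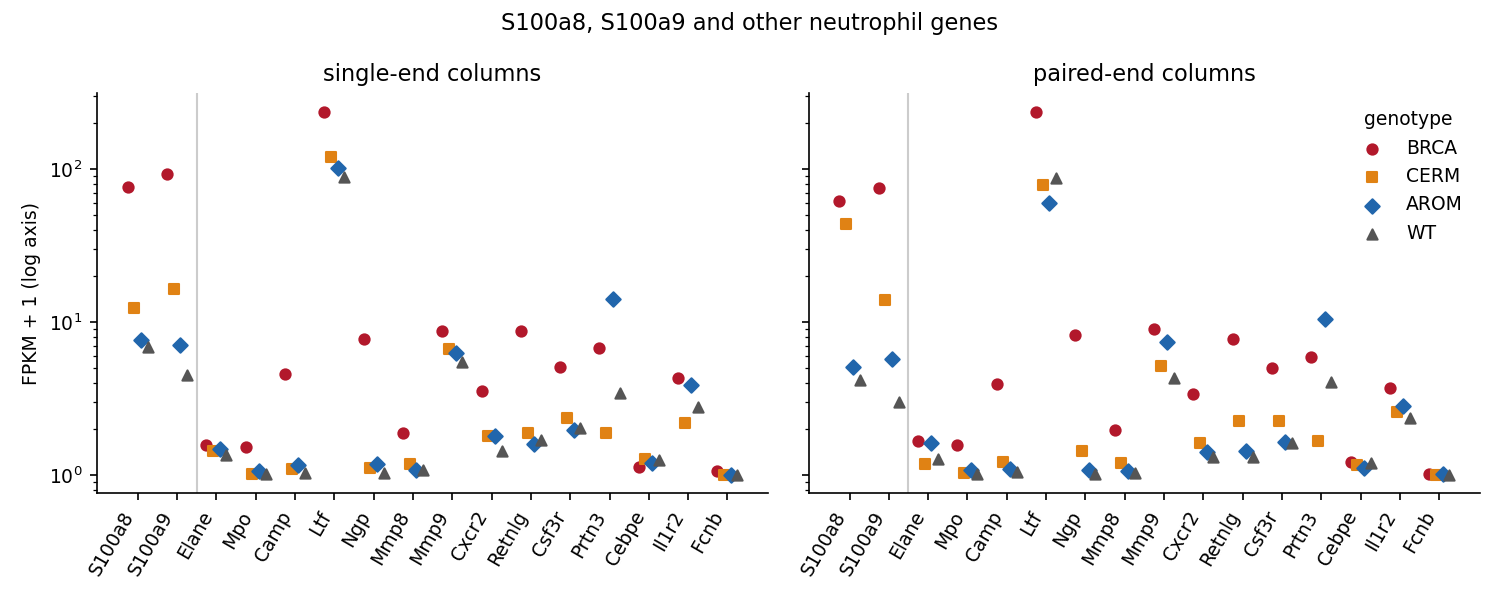
FPKM + 1 (log axis) of S100a8, S100a9 and the 14 listed neutrophil genes with a row in the pooled columns of BRCA, CERM, AROM and WT; each point is 1 column. BRCA was highest for S100a8, S100a9, Ngp and Retnlg in both layouts, and AROM for Prtn3, while paired-end CERM was high for S100a8 (42.6 FPKM) and not for Ngp (0.434 FPKM).

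Genes of innate inflammatory activation were compared from a list of 12, of which 7 were analysed. In BRCA over WT 5 were at least 2-fold higher in each layout, with median log2 ratios of 1.17 and 1.33. In CERM over WT 1 was by single-end and 3 were by paired-end reads, with medians of -0.08 and 0.53. Saa3, an acute phase gene of fat, macrophages and epithelium, was at 21.7 FPKM in BRCA, 1.26 in CERM, 0.427 in AROM and 1.39 in WT by single-end reads. By paired-end reads Saa3 was at 18.9 FPKM in BRCA, 10.8 in CERM, 1.88 in AROM and 1.46 in WT. S100a8 also had a larger log2 ratio in CERM over WT by paired-end reads (3.39) than by single-end reads (0.84). For Saa3 the CERM value was near WT by single-end reads and high by paired-end reads. Il1rn, the interleukin 1 receptor antagonist gene, showed the same difference between layouts, at 8.02 FPKM in CERM against 1.18 in WT by paired-end reads and at 0.887 against 1.91 by single-end reads. Saa1, another acute phase gene, did not, and was high in CERM in both layouts, at 24.01 FPKM against 3.46 in WT by single-end and 15.4 against 3.28 by paired-end reads.

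The 5 genes whose pattern over the 8 columns was most like the mean of S100a8 and S100a9 were Ctse, Ifi44, Saa3, Gbp1 and Oasl2. The measure was the root mean square difference of log2(FPKM + 1) after centring each gene, and it ran from 0.55 for Ctse, a protease gene, to 0.71 for Oasl2, an interferon-stimulated gene. Ctse was at 13.7 FPKM in BRCA in both layouts, and in WT at 0.726 by single-end and 0.445 by paired-end reads.

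The other 8 members showed no such difference between BRCA and WT. Their median log2 ratio in BRCA over WT was -0.12 by single-end and -0.0015 by paired-end reads, against 3.92 and 4.27 for the mean of the pair. By single-end reads none of the 8 was past 2-fold, although S100a4 was relative to loci of like transcript length (1.06), and they ranged from -0.48 for S100a16 to 0.81 for S100a4. By paired-end reads S100a4, at 1.11, and S100a6, at 1.04, were just past 2-fold, and both fell short after median-ratio scaling of the columns. The median of all loci was 0.04 and 0.11 in these comparisons. Relative to loci of like transcript length, the medians of the 8 members were 0.08 and 0.20, on the other side of 0.

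S100a4 encodes a protein of motile fibroblasts and macrophages that binds nonmuscle myosin. It was at 58.6 FPKM in BRCA, 34.9 in CERM, 39.97 in AROM and 33.1 in WT by single-end reads. By paired-end reads it was at 52.7 FPKM in BRCA, 131 in CERM, 51.8 in AROM and 23.9 in WT. BRCA was the highest column in one layout and CERM in the other. Its log2 ratio in CERM over WT was 0.08 by single-end and 2.41 by paired-end reads, and its level in CERM was 3.75 times as high in the paired-end column.

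S100a6, which encodes calcyclin of proliferating and mesenchymal cells, was at 221 FPKM in BRCA, 148 in CERM, 273 in AROM and 142 in WT by single-end reads. By paired-end reads it was at 212 FPKM in BRCA, 306 in CERM, 351 in AROM and 103 in WT. AROM was highest and WT lowest in both layouts, with CERM near WT by single-end reads only. The log2 ratio in CERM over WT was 0.06 and 1.57, and that in AROM over WT was 0.94 and 1.76.

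In CERM over WT S100a9 alone was past 2-fold by single-end reads, at a log2 ratio of 1.87, against 3.63% of all loci. For 2-fold lower values the count was 0 members, against 1.02% of all loci. S100a8 was at 0.84 there, and at 1.00 relative to loci of like length, which puts it at the edge of the size counted. By paired-end reads 4 members were at least 2-fold higher, S100a8 (3.39), S100a9 (2.22), S100a4 (2.41) and S100a6 (1.57), and none was lower, against 3.77% and 0.862% of all loci. The median of the other 8 members was -0.13 by single-end and 0.47 by paired-end reads, and the median of all loci was -0.04 and 0.04. S100a1 was below 0 in both layouts, at -0.25 and -0.32.

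**Figure D3:**
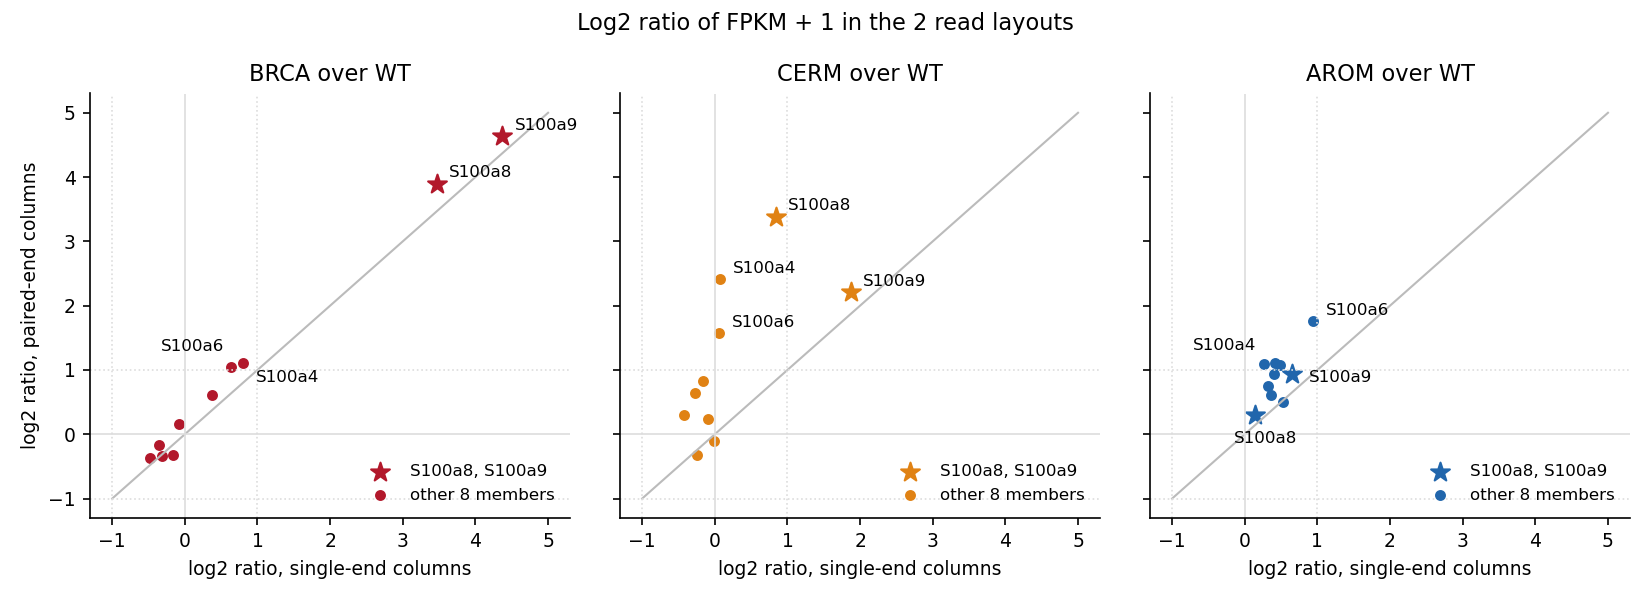
Log2 ratio of FPKM + 1 over WT in the single-end columns (x axis) and the paired-end columns (y axis), 1 panel each for BRCA, CERM and AROM; stars are S100a8 and S100a9, dots the other 8 members, the grey line marks equal ratios and dotted lines mark 2-fold. BRCA points lie near the line, whereas S100a8, S100a4 and S100a6 in CERM lie far above it (3.39 against 0.84 for S100a8).

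The spread between layouts differed by genotype. From paired-end over single-end, the members' FPKM ratios ran from 0.803 to 1.03 in BRCA, from 0.835 to 3.75 in CERM, from 0.620 to 1.30 in AROM and from 0.537 to 1.11 in WT. In CERM 3 members, S100a8, S100a4 and S100a6, were at least 2-fold higher in the paired-end column, against 1.63% of all loci. In the other genotypes no member was, where 0.648% of loci in BRCA, 0.903% in AROM and 0.607% in WT were. No member was 2-fold lower in the paired-end column, against 0.804% of loci in BRCA, 0.944% in CERM, 1.13% in AROM and 1.14% in WT. The median absolute log2 difference between layouts over all loci was 0.0581 in BRCA, 0.161 in CERM, 0.286 in AROM and 0.155 in WT.

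As for S100a4 and S100a6, the median CERM over WT ratios of macrophage and fibroblast markers were higher by paired-end reads. Of 9 macrophage genes analysed none was 2-fold higher in CERM than in WT by single-end reads and 6 were by paired-end reads, with medians of 0.18 and 1.28. Their summed FPKM in CERM against WT was 682 against 802 by single-end and 1303 against 643 by paired-end reads. Most of each sum was Lyz2, a lysozyme gene, at 411 FPKM against 556 by single-end and 919 against 457 by paired-end reads. Emr1, the macrophage marker F4/80, was at 25.6 FPKM in paired-end CERM against 3.60 in WT, and at 6.44 against 5.54 by single-end reads. Of 8 fibroblast genes analysed none was 2-fold higher by single-end reads and 5 were by paired-end reads, with medians of 0.04 and 1.24. Col3a1, a fibrillar collagen gene, was at 219 FPKM against 224 in the single-end columns and at 351 against 125 in the paired-end ones. The WT columns differed too, with a fibroblast sum of 921 by single-end and 593 by paired-end reads, against 975 and 1496 in CERM. Fibroblast counts past 2-fold over WT also rose in BRCA, from 2 to 5, and in AROM, from 0 to 2. The part of these cell types in the S100 values was not tested.

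The genes with the pattern most like that of S100a4 were Bmper, Clec12a, Pla2g2e, Clec4a2 and Tbxas1, at root mean square differences of 0.23 to 0.28. Clec12a, a myeloid lectin gene, was at 14.3 FPKM in paired-end CERM against 1.41 in WT, and at 2.24 against 2.20 by single-end reads. Bmper encodes a secreted regulator of bone morphogenetic proteins and was at 10.1 FPKM in paired-end CERM against 2.11 in WT.

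In AROM all 8 members outside the pair were above WT in both layouts, mostly by less than 2-fold. Their median log2 ratio was 0.41 by single-end reads and 1.01 by paired-end reads, while the medians of all loci were -0.0029 and -0.08, and 49.3% and 40.6% of all loci were above 0. No member was past 2-fold by single-end reads, where 2.32% of all loci were higher. By paired-end reads 4 members were, S100a6 (1.76), S100a10 (1.11), S100a4 (1.09) and S100a13 (1.08), against 2.0% of all loci. None was 2-fold lower in AROM than in WT, against 1.67% of loci by single-end and 2.77% by paired-end reads. The pair had log2 ratios of 0.14 and 0.29 for S100a8, below all of the other 8 members in both layouts, and of 0.65 and 0.94 for S100a9. S100a9 passed 2-fold by paired-end reads after median-ratio scaling (1.08) and with a pseudocount of 0.1 (1.21).

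S100a10, whose product p11 pairs with annexin A2 at membranes, was at 349 FPKM in AROM against 263 in WT by single-end and at 448 against 207 by paired-end reads. BRCA and CERM had 248 and 218 FPKM of S100a10 by single-end and 231 and 322 by paired-end reads, so AROM was the highest column in each layout. S100a13, which takes part in the unconventional release of fibroblast growth factor, was at 138 FPKM in AROM against 98.3 in WT, and at 167 against 78.4. S100a13 stood at 76.8 FPKM in BRCA and 73.3 in CERM by single-end reads, and at 69.9 in BRCA and 96.6 in CERM by paired-end reads. S100a11 was at 920.4 FPKM in AROM against 693 in WT, and at 1059.6 against 555, with BRCA at 898 and 847 and CERM at 617 and 982.

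S100a16, which is expressed in fat and epithelium, was at 50.3 FPKM in BRCA, 66.2 in CERM, 88.2 in AROM and 70.5 in WT by single-end reads. By paired-end reads S100a16 was at 47.0 FPKM in BRCA, 72.1 in CERM, 104 in AROM and 61.1 in WT. It was lowest in BRCA and highest in AROM in both layouts, and the log2 ratio in BRCA over AROM was -0.80 and -1.12. In that comparison S100a16 and S100a13 (-1.24) were the members at least 2-fold lower by paired-end reads, against 4.34% of all loci. No member was lower by single-end reads, against 3.04% of all loci.

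**Figure D4:**
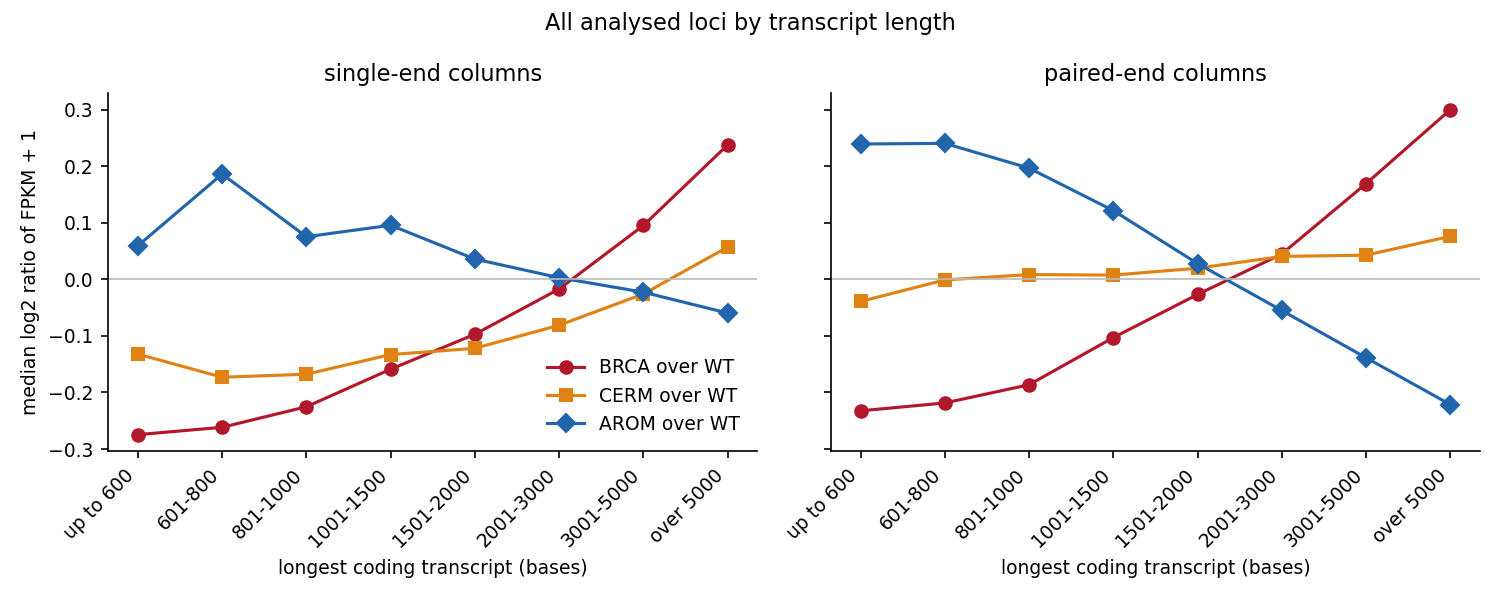
Median log2 ratio of FPKM + 1 over WT (y axis) of all analysed loci, grouped by the length of the longest coding transcript in bases (x axis), for BRCA, CERM and AROM in each read layout; each point is a median over loci. Short transcripts stood above long ones in AROM over WT and below them in BRCA over WT.

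Transcript length moved with these ratios. The longest coding transcripts of the members measure 486 bases (S100a8) to 1484 bases (S100b) in GENCODE M21, and 8 of the 10 are shorter than 1000 bases. Over the 544 loci with transcripts of up to 1000 bases the median log2 ratio in AROM over WT was 0.10 by single-end and 0.22 by paired-end reads, and in BRCA over WT it was -0.25 and -0.20. Relative to loci of like length, S100a6 alone stayed past 2-fold in paired-end AROM over WT, at 1.54, and S100a10, S100a4 and S100a13 stood at 0.89, 0.87 and 0.86. All 8 members outside the pair remained above the median of loci of like length in AROM in both layouts, by 0.17 to 0.84 and by 0.37 to 1.54. The members S100a13 and S100a16 in paired-end BRCA over AROM became -0.88 and -0.90, within 2-fold. The calprotectin pair in BRCA over WT became 3.71 and 4.62 by single-end reads and 4.10 and 4.84 by paired-end reads.

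White adipocyte markers were also higher in AROM. Of 8 analysed, 1 was at least 2-fold higher than in WT by single-end reads and 6 by paired-end reads, with medians of 0.29 and 1.08. Luminal epithelial markers were lower, 4 of 9 by 2-fold or more and then 7 of 9, with medians of -0.99 and -1.54. In BRCA over WT the adipocyte medians were -0.62 and -0.42. The part of the fat and epithelial content of the glands in the S100 values was not tested.

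S100a1 regulates calcium cycling in striated muscle and S100b is a marker of Schwann cells that adipocytes also express. S100a1 was at 261 FPKM in BRCA, 273 in CERM, 418 in AROM and 324 in WT by single-end reads, and at 269.8 FPKM in BRCA, 273 in CERM, 522 in AROM and 341 in WT by paired-end reads. S100b was at 8.999 FPKM in BRCA, 10.1 in CERM, 15.02 in AROM and 10.2 in WT, and by paired-end reads at 8.83 in BRCA, 10.5 in CERM, 16.3 in AROM and 11.3 in WT. Both were highest in AROM and lowest in BRCA in each layout, with no column 2-fold from WT. Of all pairs of members, these 2 had the most similar pattern, with a root mean square difference of 0.11.

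Skeletal muscle markers were set beside S100a1. All 9 skeletal muscle genes analysed were at least 2-fold higher than in WT by single-end reads both in CERM, with a median of 1.65, and in AROM, with a median of 1.58. S100a1 was at -0.25 in CERM and 0.37 in AROM there. By paired-end reads 1 of the 9 was 2-fold higher in CERM and none in AROM, with medians of 0.54 and 0.22, where S100a1 was at -0.32 and 0.61. The part of muscle in the values of S100a1 was not tested. The Schwann cell genes Sox10 and Prx had no common direction in AROM over WT, with single-end log2 ratios of -0.99 and 1.02 and paired-end ones of -1.51 and 0.23, where S100b was at 0.52 and 0.49. Sox10 is also expressed in mammary epithelium. The 5 genes of known name most like S100a1 were Cox7a2, Ndufa11, Naprt1, Echs1 and Mrpl12, at differences of 0.06 to 0.07, and those most like S100b were Mtg1, Mrpl27, Mdh2, Txn2 and Cycs, at 0.06 to 0.08. Cox7a2 and Ndufa11 encode respiratory chain subunits, Mdh2 the mitochondrial malate dehydrogenase and Cycs cytochrome c. In AROM against WT Cox7a2 was at 292 FPKM against 232 by single-end and at 341 against 219 by paired-end reads.

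Partners and receptors of S100 proteins were mostly within 2-fold between genotypes. Of 12 listed, 10 were analysed and none was 2-fold from WT in BRCA or AROM in either layout. In CERM Anxa2, the annexin A2 gene and partner of S100a10, was at 519 FPKM against 209 in WT by paired-end reads and at 211 against 264 by single-end reads. Its log2 ratios in CERM over WT were 1.31 and -0.32, against 0.64 and -0.27 for S100a10. In paired-end AROM over WT Anxa2 was at 0.98 and S100a10 at 1.11. In paired-end BRCA over AROM the myosin gene Myh9, whose product binds S100a4, was 2-fold higher (1.16), and Bsg, which encodes basigin, a receptor of S100A9 in human cells, was 2-fold lower (-1.002). Tlr4, the endotoxin receptor gene that calprotectin can also engage, was at 7.59 FPKM in BRCA against 4.77 in WT and at 6.97 against 3.61. Ager, the RAGE gene, was under 1 FPKM in every column.

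Of 9 other genes with S100 names listed, 3 were analysed. S100a3, known from hair cuticle, was at 5.70 FPKM in CERM against 0.6503 in WT by single-end and at 3.65 against 0.644 by paired-end reads, and at 2.43 and 2.62 FPKM in BRCA. In CERM over WT the hair keratin genes Krt71 and Krt25 had log2 ratios of 1.72 and 1.60 by single-end reads. By paired-end reads these were 1.19 and 1.24. Both reached 1 FPKM in the CERM columns only, so they were analysed because they were high in CERM. Sbsn, the other gene analysed from the list of skin and hair genes, was not higher in CERM, at -0.13 and -0.43. Lor, listed but under the filter, was lower in CERM than in WT. It was at 0.0580 against 0.853 FPKM by single-end and at 0.0555 against 1.95 by paired-end reads. In BRCA over WT S100a3 was at 1.05 and 1.14, whereas Krt71 was at -0.09 and -0.18 and Krt25 at -0.16 and -0.10. The part of skin and hair in the S100a3 values was not tested. S100a14, an epithelial member, was at 5.39 FPKM in BRCA against 2.95 in WT and at 5.21 against 2.69, less than 2-fold. S100pbp, which encodes a binding protein and no S100 protein, differed less than 2-fold from WT throughout. S100a2, S100a5, S100a7a and S100z were under 1 FPKM in all columns, and S100g reached 1 FPKM in the single-end WT column only.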

How the data were processed

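Polyadenylated RNA of whole mammary glands was sequenced on an Illumina HiSeq instrument after TruSeq library preparation, per the labels' protocols. The authors deposited 1 table of FPKM values, 1 pooled column per genotype and read layout. TopHat, Cufflinks, FastQC and Trim Galore, and mouse build mm9, are named per the submitters' processing notes. Tool versions, the handling of strand and the way libraries were pooled: not given in the sources used here.

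Of 30843 loci, 8119 had no name, 585 carried several symbols and 1719 a symbol that also stood on another locus. Of the remaining 20420, those reaching 1 FPKM in 2 or more of the 8 columns, 12188 in all, were analysed (Python 3.11.15, pandas 2.3.3). A gene high in both columns of 1 genotype can pass this filter through that genotype alone. Values were compared as deposited, as log2 of FPKM + 1, in 6 comparisons per layout. On this scale ratios of weakly expressed genes are too small. A design with no replicate columns allows no test. The limma fit named in the design for a table with a column per library could not be run, and protein identities were not analysed here. Named genes were all members, up to 3 genes of each list with the widest range over the columns, list genes under 1 FPKM by name, and the 5 genes of most similar pattern. Outside that rule Krt8, Adipoq, Ltf, Tlr4, Camp, Cxcr2, Lor and the engineered loci were named after their values were seen. The members and lists were chosen with earlier results of these data known. Transcript lengths came from GENCODE M21, which matched 87.9% of analysed loci and is of a later build than mm9, so no coordinates of the table are given. S100a11 has a processed pseudogene and S100a4 overlaps a predicted gene, and either may share reads. The counting rule was run on simulated columns with a set noise and known fold changes, placed only in loci away from low levels. That run checks the code and not how reliable the 2-fold size is in these data.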

Additional observations from a re-analysis of the deposited data

How the results depend on the processing

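A pseudocount of 0.1 and median-ratio scaling of the columns kept the sign of the calprotectin mean and of the median of the other 8 members in all 12 comparisons. Subtracting the median of loci of like transcript length, a setting chosen after seeing the data, kept the sign of the first in all 12 and changed that of the second in 3, all near 0. The shifts were at most 0.41 for the calprotectin mean and 0.39 for the other members. Scaling moved all loci by over 0.1 in paired-end BRCA over WT (-0.13), AROM over WT (0.15), BRCA over AROM (-0.28) and CERM over AROM (-0.20).

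The number of members past 2-fold in either direction depended more on the setting. With scaling it was 2 in place of 4 in paired-end BRCA over WT, and 8 in place of 4 in paired-end BRCA over AROM, where 6 of them were lower in BRCA. It was also 6 in place of 4 in paired-end AROM over WT, with S100a9 and S100a11 added, and 4 in place of 3 in paired-end CERM over AROM, with S100a1 lower. Against loci of like length it was 3 in place of 2 in single-end BRCA over WT, 2 in place of 1 in single-end CERM over WT, 1 in place of 4 in paired-end AROM over WT and 2 in place of 4 in paired-end BRCA over AROM. At 1.5-fold the single-end counts were 4 of 10 in BRCA over WT (1950 of all 12188 loci), 2 in CERM over WT (11.1%), 2 in AROM over WT (11.4%), 6 in BRCA over AROM (25.9%), 3 in BRCA over CERM (17.2%) and 6 in CERM over AROM (7.70%). The paired-end ones were 5 in BRCA over WT (17.9%), 6 in CERM over WT (13.2%), 8 in AROM over WT (16.1%), 8 in BRCA over AROM (39.1%), 3 in BRCA over CERM (17.3%) and 6 in CERM over AROM (21.6%).

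Over all loci a pseudocount of 0.1 raised the number past 2-fold. In the single-end columns it became 1092 in BRCA over WT, 818 in AROM over WT, 1646 in BRCA over AROM, 1225 in BRCA over CERM and 528 in CERM over AROM, in place of 673, 486, 1023, 751 and 322. In the paired-end columns it became 1269 in BRCA over WT, 897 in CERM over WT, 1060 in AROM over WT, 2771 in BRCA over AROM, 1142 in BRCA over CERM and 1286 in CERM over AROM, in place of 769, 564, 581, 1818, 653 and 778. By its construction a smaller pseudocount widens ratios of low values.

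No paired analysis was possible because the columns carry no replicate numbers, and for the same reason no replicate was left out in turn. No member has more than 1 row, so summing rows gave nothing. The depth behind each column is unknown, which limits the calprotectin values of AROM and WT, the lowest of the family, most.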
